A study of Mus musculus with 48 samples.

Results

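The genes described here are 9 that carry the calcium cycle of the heart muscle cell: Atp2a2, Pln, Mrln (myoregulin), Ryr2, Casq2, Jph2, Cacna1c, Slc8a1 and Camk2d. They were picked by symbol through their Ensembl identifiers, and each matched 1 row of the 53700 genes in the count table. All 9 were among the 16623 genes tested after genes with low counts were left out. RNA sequencing had been done on biventricular heart, the heart with both ventricles, from male C57BL/6 mice, with 6 libraries in each of 8 groups, which the labels number as biological replicates. CBK hearts (Bmal1 flox/flox with MHCα-Cre) were made to delete the gene of the clock factor BMAL1 in heart muscle cells and were set against littermates with the same floxed alleles and no Cre (BMAL1 FLOX). CEK hearts (E4bp4 flox/flox with MHCα-Cre) were made to delete E4bp4, or Nfil3, which encodes the repressor E4BP4, and were set against E4BP4 FLOX littermates. CBK/CEK hearts carry both pairs of floxed alleles with MHCα-Cre and were set against BMAL1/E4BP4 FLOX littermates. Cre CON hearts carry MHCα-Cre with no floxed allele and were set against wild-type (WT) littermates. The MHCα promoter drives Cre in heart muscle cells, so other cells of the tissue keep their floxed genes. The littermates carry no Cre, so each knockout comparison also holds whatever Cre itself does. The sources used here give neither age nor time of day.

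At each heartbeat the L-type channel lets a little calcium into the cell, which opens the release channel of the sarcoplasmic reticulum, the internal calcium store. The muscle relaxes as the pump SERCA returns calcium to the store and the sodium-calcium exchanger carries the rest out of the cell. SERCA is held in check or helped by a family of very small membrane peptides: phospholamban is the main inhibitor in the ventricle, sarcolipin in the atrium, and myoregulin in skeletal muscle, while DWORF, from the gene Strit1, raises pump activity.

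The libraries held 13128833 to 28407868 counts assigned to genes, apart from WT replicate 1 with 126338949. Transcripts of the mitochondrial genome took 9.55% to 22.6% of the counts in CBK, against 18.0% to 25.6% in BMAL1 FLOX. A single unnamed Ensembl gene took up to 33.4% in CEK libraries and up to 34.8% in BMAL1/E4BP4 FLOX libraries. Nfil3 stood at 0.481 to 0.718 CPM (counts scaled to a fixed library size) in CEK, against 6.51 to 10.5 CPM in E4BP4 FLOX, and at 0.991 to 2.82 CPM in CBK/CEK, against 7 to 11.9 CPM in BMAL1/E4BP4 FLOX. In CBK, where E4bp4 was not floxed, Nfil3 stood at 30.4 to 46.7 CPM, against 8.60 to 13.75 CPM in BMAL1 FLOX. Arntl, the gene of BMAL1, stood at 5.79 to 12.6 CPM in CBK, against 0.58 to 1.5 CPM in BMAL1 FLOX, and at 10.95 to 13.35 CPM in CBK/CEK, against 0.525 to 1.375 CPM in BMAL1/E4BP4 FLOX, so its count was higher where the gene was to be deleted. The sources used here do not name the exons that the floxed Bmal1 allele removes, so the whole-gene count of Arntl checks nothing about the deletion, and loss of BMAL1 is not shown by these counts. None of the 8 markers of ventricular heart muscle cells was at 0 in any group. Genes are called where edgeR's quasi-likelihood test gave a Benjamini-Hochberg adjusted p under 0.05 over all genes tested, and CPM values are scaled by TMM, which corrects library sizes for composition.

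CPM per kilobase (kb) of exon put the 9 genes in a steep order in WT hearts. Atp2a2, which encodes the pump SERCA2, stood highest at 1778 CPM per kb, and its inhibitor gene Pln followed at 492 CPM per kb. Casq2, for the calcium buffer of the store, had 295 CPM per kb, and Jph2, for the protein that holds the cell membrane against the store, had 130 CPM per kb. The channel and exchanger genes were lower, at 24.1 CPM per kb for Ryr2, 11.2 for Slc8a1 and 6.97 for Cacna1c, with the kinase gene Camk2d at 4.54. Mrln closed the order at 0.605 CPM per kb. The level of Mrln rested on 3 to 72 reads in a WT library, where the other 8 genes had between 995 and 1296225 reads in every library of the series.

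The calcium genes that passed the test did so in the 2 lines with floxed Bmal1 and Cre. In CBK hearts Mrln rose about 7.78-fold, Casq2 and Camk2d rose more mildly, and Atp2a2, Pln and Cacna1c fell. In CBK/CEK hearts, where E4bp4 was floxed as well, Mrln rose 10.3-fold and Casq2 rose, and the other 7 genes were not called. None of the 9 genes was called in CEK hearts or in hearts with Cre alone. Ryr2, Slc8a1 and Jph2 were called in no line in this fit.

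In numbers, 6 of the 9 genes were called in CBK against BMAL1 FLOX, where 8.4% of all genes tested were called. Of these, 3 were higher and 3 lower, beside 4.05% of all genes called higher and 4.35% called lower. The median size of the log2 fold change, sign ignored, was 0.44 over the 9 genes and 0.18 over all genes tested. In CBK/CEK against BMAL1/E4BP4 FLOX 2 of the 9 were called, both higher, where 5.87% of all genes were called, 2.97% higher and 2.9% lower. The median size there was 0.18 over the 9 genes and 0.17 over all genes. In CEK against E4BP4 FLOX edgeR called 0 of the 9 and 0.307% of all genes. At an unadjusted p under 0.05 there were 2 of the 9, Pln and Jph2, beside 1892 of all 16623 genes, and DESeq2 called 0. In Cre CON against WT edgeR called 0 of the 9 and 0.018% of all genes, with 0 at an unadjusted p under 0.05 and 0 called by DESeq2. Of all 16623 genes, 606 were at an unadjusted p under 0.05 in Cre CON, 3115 in CBK and 2674 in CBK/CEK. These all-gene counts are also the background for the lists of other genes below. All 9 log2 fold changes of Cre CON lay below 0, with a median of -0.09 over the 9 genes and -0.01 over all genes; leaving out 1 library of the line at a time took Casq2 up to 0.04, Slc8a1 up to 0.04 and Cacna1c up to 0.01, so the sign of these 3 was not stable. Mrln and Casq2 were the only ones of the 9 whose 6 knockout and 6 littermate libraries did not overlap, in CBK, where 4.2% of all genes did not overlap, and in CBK/CEK, where 3.53% did not. None of the 9 was free of overlap in CEK or in Cre CON, where 0.77% and 0.608% of all genes were. All of this is RNA from whole tissue, in which fewer cells of a type and less RNA per cell cannot be told apart.

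**Figure D1:**
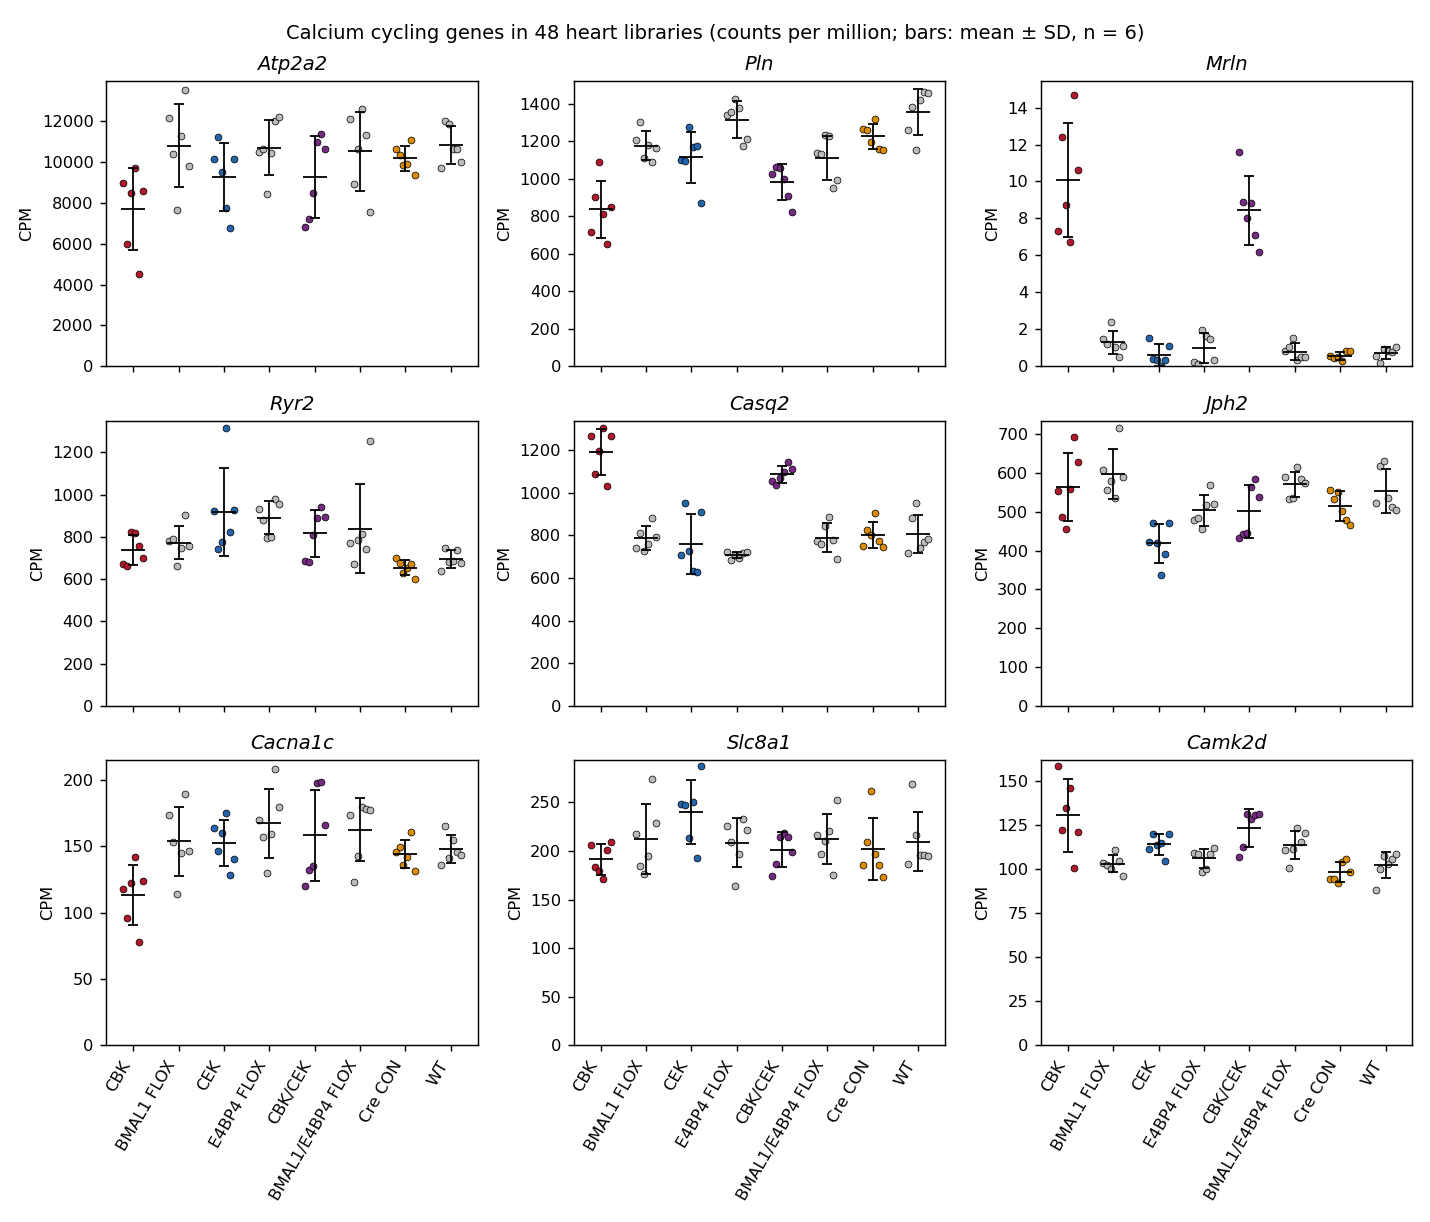
CPM (TMM scaled, linear axes from 0) of the 9 calcium cycling genes in each of the 48 libraries, by group, with knockout or Cre groups in colour, littermates in grey and bars for the mean and SD of 6 libraries. The 6 CBK and the 6 CBK/CEK libraries stand clear of their littermates for Mrln and Casq2, while the groups overlap for the other 7 genes.

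**Figure D2:**
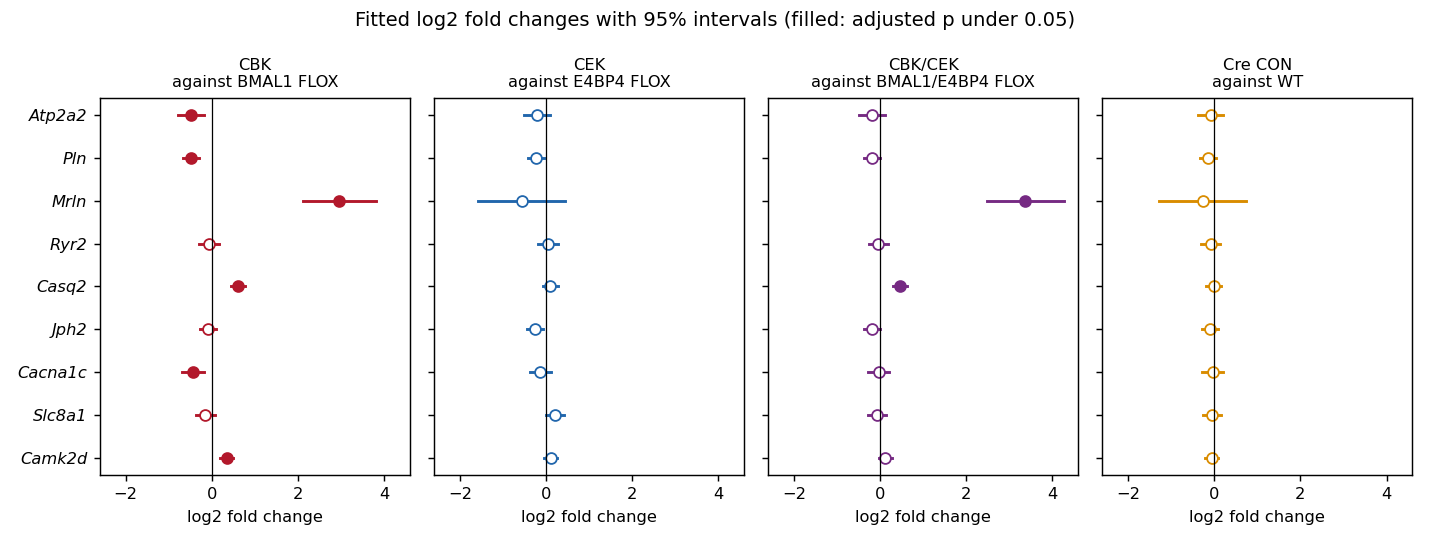
Fitted log2 fold changes (horizontal axis) of the 9 genes (rows) in the 4 comparisons (panels), with 95% intervals as lines and filled points for genes called at an adjusted p under 0.05. There are 6 filled points in CBK, 2 in CBK/CEK and none in CEK or Cre CON.

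Mrln encodes myoregulin, the SERCA inhibitor best known from skeletal muscle fibres. In CBK libraries it lay between 6.70 and 14.7 CPM with a median of 9.69, against 0.521 to 2.42 CPM with a median of 1.13 in BMAL1 FLOX. In CBK/CEK libraries it lay between 6.19 and 11.6 CPM with a median of 8.44, against 0.352 to 1.54 CPM with a median of 0.663 in BMAL1/E4BP4 FLOX. Every library of these 2 knockout groups was above every library of the other 6 groups. The log2 fold change was 2.96 in CBK (standard error 0.42, n = 6 each, edgeR adjusted p = 7.34e-07) and 3.37 in CBK/CEK (standard error 0.44, edgeR adjusted p = 2.05e-07). CEK libraries lay between 0 and 1.53 CPM, against 0.14 to 1.99 CPM in E4BP4 FLOX, and the log2 fold change of -0.56 (standard error 0.50, edgeR adjusted p = 0.72) was not called. Its interval ran from -1.57 to 0.44. The 6 CEK libraries held 0 to 28 Mrln reads each, 73 together, and the 6 E4BP4 FLOX libraries held 3 to 25, 86 together. CEK replicate 4 held 0, which allows up to 0.289 CPM for counting error alone. Cre CON libraries lay between 0.297 and 0.831 CPM, against 0.165 to 1.04 CPM in WT.

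By group mean, Mrln was highest in CBK at 10.1 ± 3.10 CPM and in CBK/CEK at 8.43 ± 1.86 CPM (SD, n = 6 each), and these neighbours overlapped. The next mean was 1.29 ± 0.637 CPM in BMAL1 FLOX, with no overlap to the libraries above. Below it came E4BP4 FLOX at 0.974 CPM, BMAL1/E4BP4 FLOX at 0.791, WT at 0.713, CEK at 0.608 and Cre CON at 0.569, and each of these overlapped its neighbours in the order. The highest group mean was 17.7 times the lowest for Mrln, where the same ratio was between 1.25 for Slc8a1 and 1.68 for Casq2 among the other 8 genes.

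Strit1, which encodes DWORF, moved the other way in the same libraries. It lay between 0.107 and 2.09 CPM in CBK with a median of 1.09, against 5.61 to 7.62 CPM with a median of 6.99 in BMAL1 FLOX. In CBK/CEK it lay between 0.453 and 1.79 CPM, against 4.55 to 9.19 CPM in BMAL1/E4BP4 FLOX. Neither pair of groups overlapped. Strit1 fell by 2.72 on the log2 scale in CBK (standard error 0.32, edgeR adjusted p = 8.3e-09) and by 2.93 in CBK/CEK (standard error 0.32, edgeR adjusted p = 2.57e-09). Its mean was also lower in Cre CON, 4.46 ± 0.886 CPM against 8.40 ± 2.03 CPM in WT, a log2 fold change of -0.92 that was not called (standard error 0.29, unadjusted p = 0.00244, edgeR adjusted p = 0.588). The falls in CBK and CBK/CEK exceeded that of Cre alone in the test of the difference, by -1.80 (standard error 0.43, edgeR adjusted p = 0.00829) and -2.01 (standard error 0.43, edgeR adjusted p = 0.00381). CEK hearts, in which Bmal1 was not floxed, averaged 4.83 ± 2.02 CPM of Strit1, against 7.17 ± 1.37 CPM in E4BP4 FLOX. These 2 groups overlapped (2.69 to 8.28 against 5.25 to 9.06 CPM), and edgeR made no call. The Strit1 mean was thus below that of littermates in every line. Within CBK, replicate 5 had both the highest Mrln, 14.7 CPM, and the highest Strit1, 2.09 CPM. The count table lists Strit1 under an identifier that GENCODE release M21 names Gm34302, tied to Strit1 through RefSeq synonyms.

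**Figure D3:**
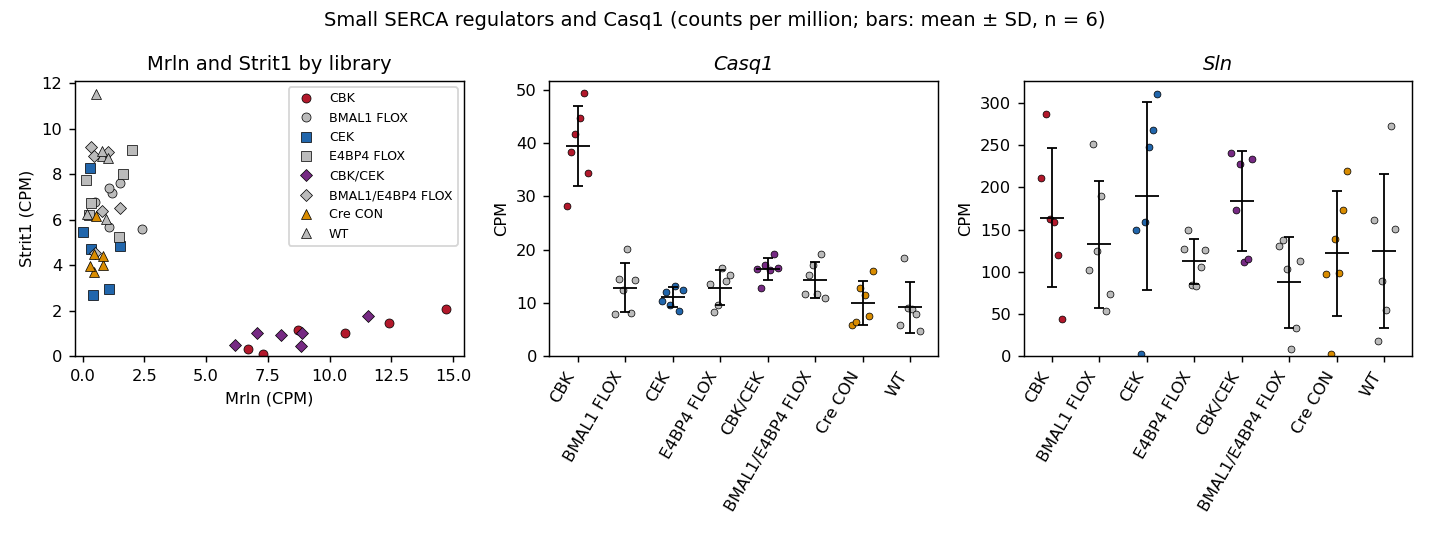
Left, Mrln against Strit1 in CPM for each of the 48 libraries; middle and right, Casq1 and Sln in CPM by group, with the mean and SD of 6 libraries as bars and linear axes. The 12 CBK and CBK/CEK libraries lie at Mrln of 6.19 CPM or more and Strit1 of 2.09 CPM or less, apart from the other 36 libraries.

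The promoter windows of Mrln, Strit1 and Casq2 are printed because these SERCA and store genes did not overlap with littermates in CBK or in CBK/CEK. Each is the RefSeq window of GRCm38.p6, 250 bases before to 50 after the start, with matches to CANNTG, the general E-box, in capitals.
Mrln, chr10:70204414-70204713, plus strand: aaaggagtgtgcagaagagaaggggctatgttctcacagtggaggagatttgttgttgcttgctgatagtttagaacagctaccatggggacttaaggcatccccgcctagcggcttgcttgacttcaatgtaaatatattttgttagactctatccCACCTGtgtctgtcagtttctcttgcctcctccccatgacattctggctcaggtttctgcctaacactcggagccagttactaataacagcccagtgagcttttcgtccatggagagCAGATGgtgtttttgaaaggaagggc
Strit1, chr3:63483857-63484156, minus strand: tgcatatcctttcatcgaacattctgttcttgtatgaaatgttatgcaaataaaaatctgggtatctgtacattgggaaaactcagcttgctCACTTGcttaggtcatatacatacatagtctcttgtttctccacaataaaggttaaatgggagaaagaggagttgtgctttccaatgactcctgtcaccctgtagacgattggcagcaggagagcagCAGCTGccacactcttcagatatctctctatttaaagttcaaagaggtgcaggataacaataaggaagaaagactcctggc
Casq2, chr3:102086165-102086464, plus strand: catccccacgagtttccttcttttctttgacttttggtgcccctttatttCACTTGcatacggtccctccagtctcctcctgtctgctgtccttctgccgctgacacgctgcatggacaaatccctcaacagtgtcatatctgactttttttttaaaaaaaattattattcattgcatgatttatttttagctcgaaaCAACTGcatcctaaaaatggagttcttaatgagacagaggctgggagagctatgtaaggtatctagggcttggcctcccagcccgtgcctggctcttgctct

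BMAL1 and its partners bind the E-box CACGTG, and E4BP4 binds D-box elements that the letters TTANGTAA describe. Both strands were searched. Of 32851 RefSeq windows of that length 7.15% held CACGTG, 2.32% held TTANGTAA, 16.3% held AGGTCA, the core site of many nuclear receptors, and 72.3% held CANNTG, which includes every CACGTG. Among the 9 genes, 8 matched at least 1 window, 11 windows in all, with Atp2a2 unmatched. None of the 11 windows held CACGTG or TTANGTAA, AGGTCA was in those of Jph2 and Ryr2, and was also in the Strit1 window, 149 bases before the start, and CANNTG was in 10 windows from 7 genes. The CANNTG matches of Mrln read CACCTG and CAGATG, those of Strit1 read CACTTG and CAGCTG, and those of Casq2 read CACTTG and CAACTG.

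The other peptide genes of the family were not called in any line; Sln, Arln and Erln are named for their family and were not chosen by size of change. Sln, for sarcolipin, averaged 163.9 ± 82.2 CPM in CBK, against 132.5 ± 74.7 CPM in BMAL1 FLOX, with a log2 fold change of 0.31 (standard error 0.64, edgeR adjusted p = 0.881). In CBK/CEK its log2 fold change was 1.07 (standard error 0.65, edgeR adjusted p = 0.454). Sln ran from 3.05 to 310.4 CPM within the CEK libraries alone, and the summed level of the 7 atrial markers, Sln among them, ran from 130.6 to 3139 CPM there, so the amount of atrial tissue per library is beside these values and its part was not tested. Arln, for another-regulin, had log2 fold changes between -0.38 and 0.19 over the 4 lines, and Erln, for endoregulin, was under 2.02 CPM in every library. Of 9 other genes listed for store pumps with their regulators and partners, all tested, 1 was called, Strit1, lower in CBK and in CBK/CEK. That is 11.11% in each, beside 8.4% of all genes in CBK and 5.87% in CBK/CEK. In CEK and in Cre CON edgeR and DESeq2 called 0 of the 9. At an unadjusted p under 0.05 were 3 in each, beside 1892 and 606 of all 16623 genes.

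Atp2a2 and Pln, the pump and its main ventricular inhibitor, both fell in CBK. Pln lay between 654.4 and 1089 CPM in CBK with a median of 831.2, against 1087 to 1304 CPM with a median of 1172 in BMAL1 FLOX. The groups overlapped by a single CBK library, replicate 3, the highest of its group. The log2 fold change of Pln was -0.49 (standard error 0.09, edgeR adjusted p = 9.11e-05), and it was called in each of the 12 fits that left out 1 library of the line. Atp2a2 lay between 4500 and 9705 CPM in CBK with a median of 8529, against 7659 to 13510 CPM with a median of 10830 in BMAL1 FLOX, so the groups overlapped widely. Its log2 fold change was also -0.49, with a larger error (standard error 0.15, edgeR adjusted p = 0.0235). Leaving out CBK replicate 5, which held 4500 CPM of Atp2a2 and the lowest mitochondrial share of the series, 9.55%, gave -0.35 and an edgeR adjusted p of 0.119. The call was also lost without CBK replicate 2, BMAL1 FLOX replicate 1 or BMAL1 FLOX replicate 5, at edgeR adjusted p = 0.0824, 0.0659 and 0.091, with the 12 libraries of the line fitted alone (0.161) and with no filter on low counts (0.0882). The part of the mitochondrial share in the result was not tested.

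In the other lines both genes had values below their littermates that did not pass the test. Pln averaged 1114 ± 136 CPM in CEK and 1315 ± 99.2 CPM in E4BP4 FLOX (log2 fold change -0.24 with SE 0.09, edgeR adjusted p = 0.272), 980.8 ± 95.7 CPM in CBK/CEK and 1112 ± 117 CPM in BMAL1/E4BP4 FLOX (log2 fold change -0.18, edgeR adjusted p = 0.314), and 1226 ± 67.6 CPM in Cre CON and 1356 ± 124.1 CPM in WT (log2 fold change -0.15, edgeR adjusted p = 1). Atp2a2 averaged 9256 ± 1678 CPM in CEK and 10700 ± 1357 CPM in E4BP4 FLOX, 9249 ± 2011 CPM in CBK/CEK and 10520 ± 1943 CPM in BMAL1/E4BP4 FLOX, and 10180 ± 615 CPM in Cre CON and 10810 ± 935 CPM in WT. Its log2 fold changes there were -0.21, -0.19 and -0.09, with SE 0.15 in each case. The balance of pump to inhibitor, as Atp2a2 CPM over Pln CPM within a library, averaged 9.29 ± 2.57 in CBK and 9.21 ± 1.94 in BMAL1 FLOX. It averaged 8.49 ± 2.27 in CEK and 8.24 ± 1.64 in E4BP4 FLOX, 9.63 ± 2.86 in CBK/CEK and 9.49 ± 1.72 in BMAL1/E4BP4 FLOX, and 8.32 ± 0.673 in Cre CON and 8.05 ± 1.25 in WT. In each line the means differed by less than 1 SD.

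Casq2 encodes cardiac calsequestrin, which binds calcium inside the store beside the release channel. It lay between 1033 and 1305 CPM in CBK with a median of 1232, against 728.2 to 883.1 CPM with a median of 776.2 in BMAL1 FLOX. In CBK/CEK it lay between 1037 and 1144 CPM with a median of 1084, against 690.3 to 885.2 CPM with a median of 775.5 in BMAL1/E4BP4 FLOX. All 12 knockout libraries stood above all 12 littermate libraries of these lines. Casq2 rose by 0.60 on the log2 scale in CBK (standard error 0.08, edgeR adjusted p = 3.18e-07) and by 0.46 in CBK/CEK (standard error 0.08, edgeR adjusted p = 8.41e-05). CEK libraries spread between 628.9 and 953.0 CPM, against 686.1 to 723.8 CPM in E4BP4 FLOX (log2 fold change 0.10, edgeR adjusted p = 0.688). Cre CON libraries averaged 800.6 ± 60.4 CPM and WT libraries 807.6 ± 90.6 CPM, with a log2 fold change of -0.01 and an interval of -0.18 to 0.16.

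Casq1, the calsequestrin of fast skeletal muscle, was higher in CBK too, and was not called in CBK/CEK. It lay between 28.3 and 49.4 CPM in CBK, against 7.87 to 20.2 CPM in BMAL1 FLOX, with no overlap (log2 fold change 1.61 with SE 0.24, edgeR adjusted p = 2.8e-06). In CBK/CEK it lay between 12.8 and 19.2 CPM, against 10.9 to 19.1 CPM in BMAL1/E4BP4 FLOX (log2 fold change 0.19 with SE 0.24, edgeR adjusted p = 0.797). The test of the difference between these 2 changes gave -1.42 (standard error 0.34, unadjusted p = 0.000127) and missed the threshold at an edgeR adjusted p of 0.0706. The summed level of 14 skeletal muscle markers, Casq1 among them, was 98.7 to 145.8 CPM in CBK and 65.3 to 132.1 CPM in BMAL1 FLOX. Casq1 and Mybpc2, a skeletal myosin-binding protein with a median of 30.01 CPM in CBK, against 18.19 CPM in BMAL1 FLOX, carried the higher sum. Mylpf, Tnni2, Myl1, Pvalb and Cacna1s had lower medians in CBK than in BMAL1 FLOX. Tnnt3, Ryr1, Actn3 and Atp2a1 had higher medians in CBK, at 0.886, 0.553, 0.419 and 1.28 CPM, against 0.403, 0.0756, 0.134 and 1.15 CPM. The median log2 fold change of the 11 markers tested was -0.18. Of these 11, 2 were called higher in CBK, where 4.05% of all genes were, and 0 in CBK/CEK, where 2.97% were. The fast myosin genes were near 0 throughout: the 6 CBK libraries held 6 reads of Myh1 and 2 of Myh4 together.

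Ryr2, the release channel, and Jph2 were called in no line in the fit of the 8 group means. Ryr2 averaged 739.1 ± 71.2 CPM in CBK, against 772.9 ± 78.3 CPM in BMAL1 FLOX, a log2 fold change of -0.06 with an interval of -0.29 to 0.16. In CEK, CBK/CEK and Cre CON its log2 fold changes were 0.04, -0.04 and -0.09, with intervals that together span -0.31 to 0.27, and the first of these turned to -0.09 and the second to 0.12 without 5 libraries of outlying composition. Jph2 averaged 562.9 ± 87.9 CPM in CBK, against 597.2 ± 63.4 CPM in BMAL1 FLOX (log2 fold change -0.09 with SE 0.09, edgeR adjusted p = 0.718). The largest difference of Jph2 was in CEK, at 418.9 ± 50.3 CPM against 503.8 ± 40.4 CPM in E4BP4 FLOX (log2 fold change -0.27 with SE 0.09, unadjusted p = 0.00534, edgeR adjusted p = 0.2). In CBK/CEK it averaged 500.9 ± 68.6 CPM, against 571.2 ± 32.1 CPM in BMAL1/E4BP4 FLOX (log2 fold change -0.19, edgeR adjusted p = 0.285). Animal numbers in the labels were split into a lower and a higher class per line. The limit was 100 in the CBK and CBK/CEK lines, 150 in the CEK line and 10 in the Cre line. In CBK/CEK, replicates 1 to 3 (higher class) held 432.2 to 444.4 CPM of Jph2 and replicates 4 to 6 held 538.3 to 583.4. Atp2a2 (6800 to 8496 against 10640 to 11380 CPM) and Cacna1c (120.4 to 134.8 against 166.1 to 198.2 CPM) divided there likewise. So did Ryr2 (680.8 to 807.9 against 888.1 to 944 CPM) and Casq2 (1037 to 1072 against 1096 to 1144 CPM). Pln divided the opposite way (1025 to 1065 against 822.3 to 1001 CPM), and Mrln, Slc8a1 and Camk2d overlapped between the classes. With this class as a covariate, Jph2 was called lower in CEK (-0.30, edgeR adjusted p = 0.0358) and in CBK/CEK (-0.24, edgeR adjusted p = 0.035).

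Of 21 other genes of release and the membrane junction, all tested, 2 rose and 2 fell in CBK and 2 rose and 1 fell in CBK/CEK, with 0 called by edgeR in CEK and in Cre CON, where 2 and 0 were at an unadjusted p under 0.05 and DESeq2 called 0. The called share of these 21 was 19.05% in CBK, beside 8.4% of all genes, and 14.29% in CBK/CEK, beside 5.87%. Jph1, the junctophilin best known from skeletal muscle, fell in both, to 9.78 ± 3.04 CPM in CBK against 15.7 ± 3.13 CPM in BMAL1 FLOX (log2 fold change -0.69, edgeR adjusted p = 0.00172), and by 0.53 in CBK/CEK (edgeR adjusted p = 0.0284). Dysf, for the membrane repair protein dysferlin, rose in CBK/CEK to 117.2 ± 6.54 CPM, against 84.4 ± 4.22 CPM in BMAL1/E4BP4 FLOX (log2 fold change 0.47, edgeR adjusted p = 0.000267), and was 0.15 and not called in CBK. Calm2, 1 of 3 calmodulin genes, fell in CBK by 0.33 (edgeR adjusted p = 6e-04). Calmodulin genes have close copies, and how reads shared between copies were counted is not stated, so the Calm2 value is uncertain. The median log2 fold change of the 21 was 0.15 in CBK and -0.06 in CBK/CEK, beside -6e-04 and -0.02 over all genes.

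Cacna1c encodes the pore of the L-type calcium channel, through which the trigger calcium enters. It lay between 78.2 and 142.0 CPM in CBK with a median of 119.9, against 114.3 to 189.3 CPM with a median of 150 in BMAL1 FLOX. The groups overlapped, and the log2 fold change was -0.44 (standard error 0.12, edgeR adjusted p = 0.0138). As for Atp2a2, CBK replicate 5 was the lowest of its group. The call was lost without it (-0.33, edgeR adjusted p = 0.0818) without BMAL1 FLOX replicate 5 (-0.37, edgeR adjusted p = 0.064) and with the 12 libraries of the line fitted alone (-0.44, edgeR adjusted p = 0.0987). Cacna1c averaged 158.1 ± 34.3 CPM in CBK/CEK and 162.3 ± 23.8 CPM in BMAL1/E4BP4 FLOX, with a log2 fold change of -0.04. The values were -0.13 in CEK and -0.04 in Cre CON, neither called.

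Among 18 listed genes of other entry channels, their subunits and small GTPase inhibitors, 17 were tested, all but Rem2, and 1 rose and 4 fell in CBK, a share of 29.41% beside 8.4% of all genes. Cacnb2, for the main cardiac beta subunit of the L-type channel, fell to 35.7 ± 2.179 CPM in CBK, against 50.4 ± 6.46 CPM in BMAL1 FLOX (log2 fold change -0.50, edgeR adjusted p = 0.000367). Cacnb1, another beta subunit, rose to 10.3 ± 0.883 CPM in CBK, against 6.91 ± 1.57 CPM in BMAL1 FLOX (0.58, edgeR adjusted p = 0.00379). Cacng6, for a gamma subunit, fell to 3.03 ± 0.963 CPM in CBK, against 6.47 ± 1.96 CPM in BMAL1 FLOX (-1.10, edgeR adjusted p = 0.0011). Its CBK range, 1.68 to 4.23 CPM, overlapped that of WT, 2.20 to 5.00 CPM. The mean of Cacng6 was also below littermates in CEK (4.09 against 5.07 CPM), CBK/CEK (4.37 against 5.17 CPM) and Cre CON (2.69 against 3.65 CPM), and was not called there. Ahnak, for a large scaffold protein that binds the beta subunit, fell in both lines with floxed Bmal1 and Cre, by 0.50 in CBK (edgeR adjusted p = 0.0073) and by 0.66 in CBK/CEK (edgeR adjusted p = 0.00043). In CBK/CEK 0 of the 17 rose and 2 fell, 11.76% beside 5.87% of all genes, and edgeR called 0 in CEK and in Cre CON, where 1 and 0 were at an unadjusted p under 0.05 and DESeq2 called 0.

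Slc8a1 encodes the sodium-calcium exchanger NCX1, the main way out of the cell for calcium. It averaged 191.5 ± 15.7 CPM in CBK, against 212.7 ± 36.0 CPM in BMAL1 FLOX (log2 fold change -0.15 with SE 0.11, edgeR adjusted p = 0.496). CEK ran the other way, at 240.2 ± 32.8 CPM against 208.5 ± 25.0 CPM in E4BP4 FLOX, and was not called either (0.20, edgeR adjusted p = 0.464). In CBK/CEK and Cre CON the log2 fold changes were -0.07 and -0.05. All 11 listed genes of the other exchangers, the surface calcium pumps and the sodium pump were tested, and edgeR called 0 of them in any line. At an unadjusted p under 0.05 there were 1 in CBK, 4 in CBK/CEK and 0 in CEK and in Cre CON, and DESeq2 called 1 in CBK and 1 in CBK/CEK. Of the 11 listed genes of mitochondrial calcium transport edgeR also called 0 in any line. There, 2 in CBK, 2 in CBK/CEK, 3 in CEK and 1 in Cre CON were at an unadjusted p under 0.05, and DESeq2 called 1 in CBK and 1 in CBK/CEK.

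Camk2d encodes the delta form of the calcium/calmodulin-dependent kinase, which phosphorylates phospholamban and the release channel. It lay between 100.3 and 158.1 CPM in CBK with a median of 128.4, against 96.1 to 110.5 CPM with a median of 102.9 in BMAL1 FLOX. The spread in CBK was the wider one, with a SD of 20.4 CPM against 4.82 CPM in BMAL1 FLOX, and the lowest CBK library overlapped the littermates. Camk2d rose by 0.34 in CBK (standard error 0.08, edgeR adjusted p = 0.00101), and the call was lost when the 12 libraries of the line were fitted alone (0.34, edgeR adjusted p = 0.0634). In CBK/CEK it averaged 123.3 ± 10.7 CPM, against 113.5 ± 8.09 CPM in BMAL1/E4BP4 FLOX (0.12 with SE 0.08, edgeR adjusted p = 0.467). In CEK and Cre CON the log2 fold changes were 0.10 and -0.06, neither called.

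Of 35 other genes of kinases, phosphatases and beta-adrenergic signalling, 5 rose and 3 fell in CBK, 22.86% beside 8.4% of all genes, and 4 rose and 1 fell in CBK/CEK, 14.29% beside 5.87%. Rcan1, whose product restrains the calcium-dependent phosphatase calcineurin, rose to 207.2 ± 29.2 CPM in CBK, against 62.9 ± 7.85 CPM in BMAL1 FLOX (log2 fold change 1.72, edgeR adjusted p = 3.39e-16). It rose to 204.6 ± 40.3 CPM in CBK/CEK, against 59.4 ± 12.1 CPM in BMAL1/E4BP4 FLOX (1.78, edgeR adjusted p = 3.26e-16), and stood at 54.5 ± 10.99 CPM in CEK and 63.0 ± 5.72 CPM in Cre CON. Prkar1a, for the regulatory subunit that holds protein kinase A inactive, rose by 0.81 in CBK and 0.79 in CBK/CEK, with no overlap in either. Adcy5, for a cyclase that makes cyclic AMP, rose by 0.49 in CBK and 0.75 in CBK/CEK, beside an uncalled 0.30 in Cre CON (unadjusted p = 0.0185). The test of the difference from Cre alone did not call Adcy5 in either line (edgeR adjusted p = 0.812 in CBK and 0.323 in CBK/CEK). Ppp1r1a, for an inhibitor of protein phosphatase 1, fell by 1.24 in CBK, at 0.666 ± 0.385 CPM against 1.56 ± 0.221 CPM in BMAL1 FLOX.

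At the myofilament, where calcium is sensed, Mylk4, for a myosin light chain kinase, fell to 31.95 ± 12.9 CPM in CBK, against 137.6 ± 36.8 CPM in BMAL1 FLOX (log2 fold change -2.11 with SE 0.21, edgeR adjusted p = 1.87e-10). It fell less in CBK/CEK, to 79.7 ± 27.1 CPM against 129.7 ± 21.6 CPM in BMAL1/E4BP4 FLOX (-0.70 with SE 0.20, edgeR adjusted p = 0.0229). The test of the difference between these 2 changes gave 1.40 (standard error 0.28, edgeR adjusted p = 0.0102). Mybpc3, for cardiac myosin-binding protein C, rose by 0.63 in CBK and by 0.47 in CBK/CEK, and Mylk3, the cardiac light chain kinase, rose by 0.37 in CBK/CEK. Of the 7 genes listed here 1 rose and 1 fell in CBK, 28.57% beside 8.4% of all genes, and 2 rose and 1 fell in CBK/CEK, 42.86% beside 5.87%. Of 10 genes of store-operated entry, 9 were tested, all but Trpc6, and Trpm4, a calcium-activated cation channel, fell in CBK by 0.38 (edgeR adjusted p = 0.0276). Trpm4 was the only 1 of the 9 called in CBK, 11.11% beside 8.4% of all genes. Over all 8 lists, 120 of 122 genes were tested. In CBK 9 rose and 12 fell, 17.5% of them beside 8.4% of all genes, and in CBK/CEK 8 rose and 6 fell, 11.67% beside 5.87% of all genes, with median log2 fold changes of 0.05 and -0.02. In CEK and Cre CON edgeR called 0 of the 120, and DESeq2 called 2 in CEK and 0 in Cre CON. At an unadjusted p under 0.05 were 17 and 6 of the 120, beside 1892 and 606 of all 16623 genes.

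**Figure D4:**
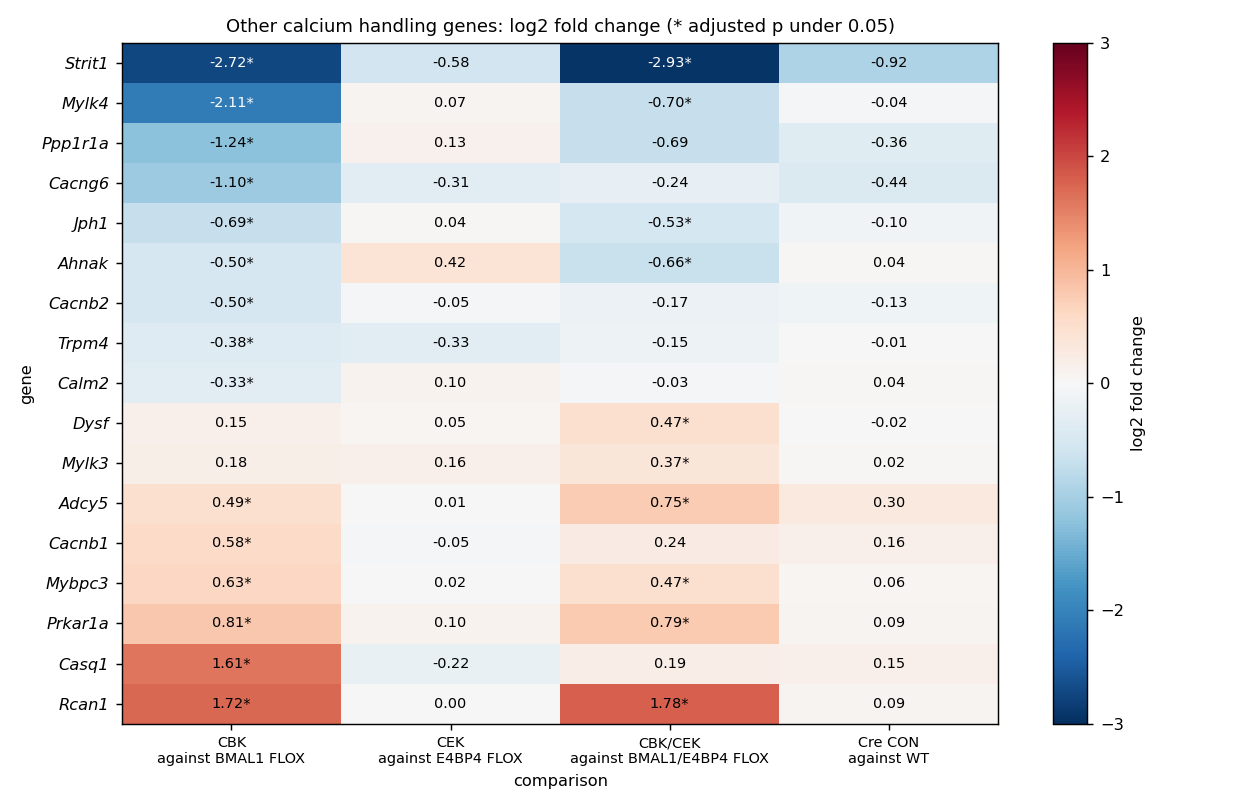
Log2 fold change (colour and printed value) of the 17 called calcium handling genes named in the text (rows) in the 4 comparisons (columns), with an asterisk for an adjusted p under 0.05. The asterisks are confined to the columns of CBK and CBK/CEK, with Strit1 at -2.72 and -2.93 and Rcan1 at 1.72 and 1.78.

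Whether the changes exceeded those of Cre alone was tested by subtracting the Cre CON change from each knockout change. For CBK 3 of the 9 genes were called, where 2.47% of all genes were: Mrln at 3.23 (standard error 0.64, edgeR adjusted p = 0.0012), Casq2 at 0.61 (standard error 0.12, edgeR adjusted p = 0.000565) and Camk2d at 0.40 (standard error 0.11, edgeR adjusted p = 0.0233), which was lost with no filter on low counts (edgeR adjusted p = 0.111). Pln, Cacna1c and Atp2a2 gave differences of -0.34 (edgeR adjusted p = 0.217), -0.40 (edgeR adjusted p = 0.352) and -0.40 (edgeR adjusted p = 0.498), none of which passed. For CBK/CEK 2 of the 9 were called, where 1.34% of all genes were: Mrln at 3.64 (standard error 0.66, edgeR adjusted p = 0.000454) and Casq2 at 0.47 (standard error 0.12, edgeR adjusted p = 0.0196). For CEK edgeR called 0 of the 9 and 0.00602% of all genes. At an unadjusted p under 0.05 were 0 of the 9 and 648 of all 16623 genes, and DESeq2 called 0 of the 9.

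The CBK and CEK changes differed for 2 of the 9 genes, where 3.19% of all genes were called: Mrln by 3.52 (standard error 0.65, edgeR adjusted p = 0.000277) and Casq2 by 0.50 (standard error 0.12, edgeR adjusted p = 0.00593). The double knockout was also set against the single Bmal1 knockout, each relative to its own littermates. There edgeR called 0 of the 9 and 0.162% of all genes, and DESeq2 called 0 of the 9. At an unadjusted p under 0.05 were 3 of the 9, beside 930 of all 16623 genes. Those 3 were Pln, where the CBK/CEK change minus the CBK change was 0.31 (interval 0.05 to 0.57), Cacna1c at 0.40 (0.05 to 0.75) and Camk2d at -0.22 (-0.44 to -0.01). The missing calls of Pln, Atp2a2, Cacna1c and Camk2d in CBK/CEK are not shown to be a difference between the lines. For Mrln the difference was 0.41, with an interval of -0.77 to 1.58, and for Casq2 it was -0.14, with an interval of -0.38 to 0.10. In the test of additivity, CBK/CEK change minus the CBK and CEK changes plus the Cre change, edgeR called 0 of the 9 and 0.012% of all genes. Pln, Cacna1c and Camk2d were again at an unadjusted p under 0.05, beside 980 of all 16623 genes, and DESeq2 called 0 of the 9. These contrasts share groups, so their values are not independent of one another.

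Within groups, some of the genes moved together from library to library. Over deviations of log2 CPM from the group means in the 48 libraries, Pearson's r was 0.78 between Atp2a2 and Cacna1c, 0.66 between Atp2a2 and Casq2 and 0.66 between Atp2a2 and Camk2d. Pln stood apart from its target, with r = -0.04 against Atp2a2, and ran opposite to Jph2, with r = -0.59. Pln followed the mitochondrial share of the library instead, with r = 0.69, against 0.44 for Atp2a2 and -0.36 for Jph2. Ryr2 followed the log2 share of the unnamed gene, with r = 0.59. All these values come from the same libraries and share their depth and composition, and in CBK/CEK the split by animal number. They are given as a description.

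**Figure D5:**
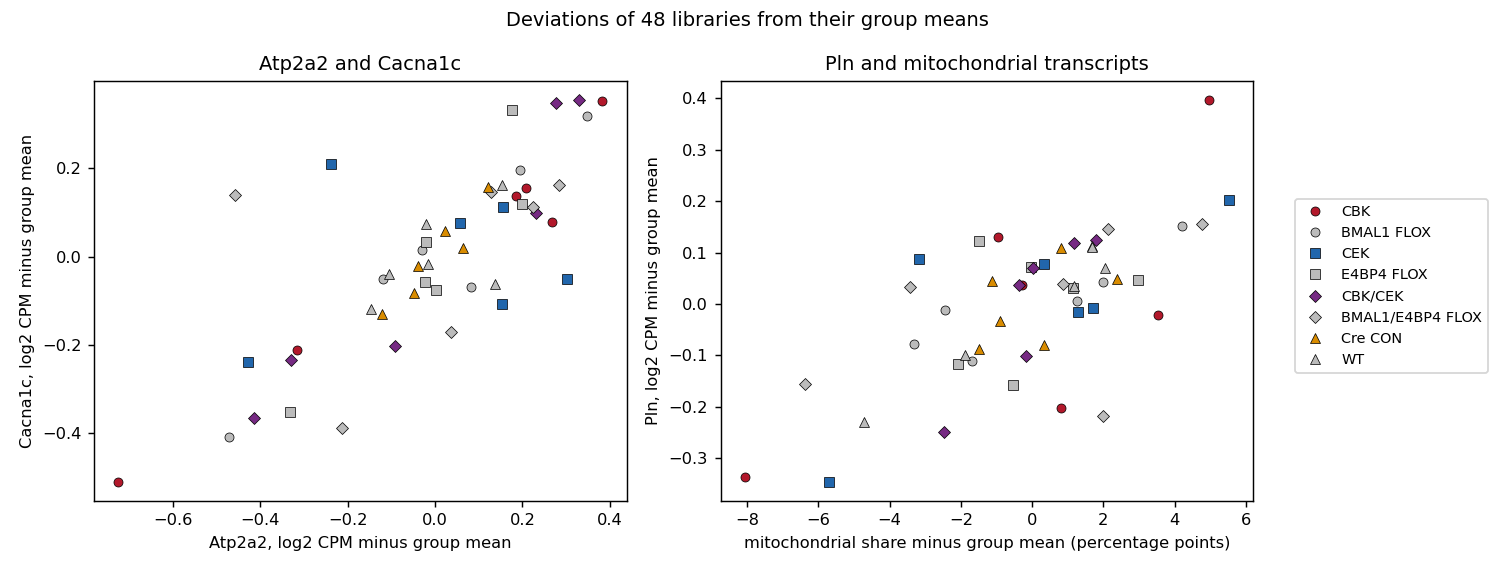
Deviations from group means in 48 libraries: left, Cacna1c against Atp2a2 in log2 CPM; right, Pln in log2 CPM against the mitochondrial share in percentage points. Points rise together in both panels (r = 0.78 and r = 0.69), and CBK replicate 5 is the lowest point for Atp2a2 and for Cacna1c.

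Across all 48 libraries, with the differences between groups included, the genes whose log2 CPM was most like that of Mrln were Leo1, Slc41a3, Gstm7 and Rcan1 (r = 0.88 each) and Colq (r = 0.87), out of 13089 genes with a mean of at least 1 CPM. Leo1 encodes a subunit of a transcription elongation complex, Slc41a3 a magnesium transporter, Gstm7 a glutathione transferase and Colq the collagen tail of acetylcholinesterase. Each of the 5 was called higher in CBK and in CBK/CEK with no overlap, where 4.2% and 3.53% of all genes did not overlap. That follows from how they were chosen, since Mrln itself was highest in these groups, and is no separate result. In CBK their log2 fold changes lay between 0.93 for Gstm7 and 2.93 for Slc41a3. Once group means were removed, the closest were Hira at r = 0.67, Armc6 at 0.59, Mapre1 and Borcs6 at 0.58 and Gemin6 at 0.57. For the other genes, again on deviations, the closest were Atp1b1 for Atp2a2 (r = 0.95), Pde4dip for Cacna1c (0.92), Ttn for Ryr2 (0.84), Casq2 with Mfn1 (0.83), Camk2d with Pja2 (0.83), Pln with the mitochondrial gene mt-Nd4 (0.83), Jph2 with Psap (0.78) and Slc8a1 with Raph1 (0.64).

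Where gene models overlap, counts could be shared. Exons of Gm47644, on the other strand, cover 59.6% of the exon length of Pln, and Cep85l covers 5.11%, in GENCODE M21. The counts assigned to these 2 genes were at most 1.15% and 1.62% of those of Pln in any library. Reads lying in the shared stretch and left uncounted as ambiguous are not seen in the table, and whether counting used strand is not stated. Atp2a2 and Slc8a1 had overlaps of at most 1.57% of their exon length, and the other 6 genes had none. Of 7 markers each, 0 of the fibroblast, macrophage and atrial lists were called in CBK or in CBK/CEK, 1 endothelial marker was lower in CBK and 1 mural marker was higher in CBK/CEK. Of all genes, 8.4% were called in CBK and 5.87% in CBK/CEK. Though uncalled, the 7 atrial markers had median log2 fold changes of 0.10 in CBK, 0.77 in CBK/CEK, 0.75 in CEK and -0.03 in Cre CON. Their summed level had a median of 1913 CPM in CBK/CEK, against 1171 CPM in BMAL1/E4BP4 FLOX. In CEK it was 2337 CPM, against 1202 CPM in E4BP4 FLOX, with overlapping groups in both lines. Of the 8 cardiomyocyte markers 1 was called higher in CBK and 1 in CBK/CEK. The summed cardiomyocyte markers ran from 63470 to 116600 CPM in CBK and from 69140 to 86290 CPM in BMAL1 FLOX. Of 6 conduction system markers tested, 1 was lower in CBK and 1 in CBK/CEK, beside 4.35% and 2.9% of all genes called lower. The sum of all 7 conduction markers listed was 17.2 to 23.5 CPM in CBK, against 29.6 to 36.0 CPM in BMAL1 FLOX. The part of the cell types behind these markers in the results was not tested.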

How the data were processed

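Raw counts per gene for 48 libraries were deposited by the authors as 1 table. Per the submitters' processing notes, the tools were bcl2fastq (version 2.18.0.12), STAR (version 2.7.9a) and HTSeq (version 0.11.1), and the build was GRCm39, with no role given; per the labels' protocols, libraries were made with the SMARTER mRNA-Seq kit. The sources used here name no annotation release or strand setting. The 5 HTSeq summary lines were left out of library sizes. Symbols and exon lengths came from GENCODE M21 (97.11% of identifiers matched), and promoter windows from RefSeq GRCm38.p6.

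Counts were fitted in edgeR 4.0.16 (R 4.3.3; TMM, filterByExpr, robust quasi-likelihood, 8 group means, 40 residual degrees of freedom), with Benjamini-Hochberg adjustment over 16623 genes in each of 10 contrasts, after a check on simulated data. CPM values were computed from the deposited counts. DESeq2 1.42.0 was 1 of 11 alternatives; a sign change of a value called in neither fit was not counted as a reversal. The genes and lists were chosen with earlier results of these data known. The text names every one of the 9 genes; the called genes with the 4 largest changes in each other list; the 5 genes most like Mrln in levels, the 5 most like it in deviations, and the 1 most like each other gene. No 2 libraries were identical. The labels call the replicates biological and say no more of their source, so the p-values reflect how these samples vary, which may be partly technical. Replicate numbers were not taken as pairs, and partial pairing is not excluded.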

Additional observations from a re-analysis of the deposited data

Results flagged for a closer look

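In 72 sets of 1 gene in the 6 libraries of 1 group, 3 held a library far from the others. That is not above the rate of about 1 set in 20 that chance gives. Ryr2 stood at 1315 CPM in CEK replicate 4, with the next library at 926.9 CPM. Ryr2 stood at 1255 CPM in BMAL1/E4BP4 FLOX replicate 6, with the next at 812.4 CPM. In these libraries the unnamed gene took its largest shares, 33.4% in CEK replicate 4 and 34.8% in BMAL1/E4BP4 FLOX replicate 6. The part of that share was not tested. Slc8a1 stood at 268.9 CPM in WT replicate 2, with the next at 216.7 CPM.

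Some changes differed between lines in the test of the difference itself. For Mrln the log2 fold change of CBK exceeded that of Cre CON by 3.23 and that of CEK by 3.52, and the change of CBK/CEK exceeded that of Cre CON by 3.64. For Casq2 the same differences were 0.61, 0.50 and 0.47. For Camk2d the CBK change exceeded that of Cre CON by 0.40.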

How the results depend on the processing

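Mrln, Casq2 and Pln kept their calls in CBK under all 11 alternatives and without each library of the line in turn, fits added after seeing the data, and Mrln and Casq2 kept theirs in CBK/CEK. A fit of the line's 12 libraries alone called 3 of the 9 genes in CBK in place of 6, 2 higher and 1 lower, with Atp2a2 at adjusted p = 0.161, Cacna1c at 0.0987 and Camk2d at 0.0634. Atp2a2 also lost its call with no filter on low counts (0.0882), and Atp2a2 and Cacna1c without 5 libraries of outlying composition (0.0933 and 0.11; CBK 3 and 5, CEK 4 and 5 and BMAL1/E4BP4 FLOX 6). The Camk2d difference from Cre alone lost its call with no filter (0.111). With the class of animal number as a covariate 1 of the 9 was called in CEK, Jph2 at -0.30, which was then also called in CBK/CEK at -0.24. Replicate numbers were not taken as pairs. Per line, 1 to 4 of 6 pairs correlated over 0.1 and 1 to 3 of 6 libraries were closest to their own number. Both counts were highest in CBK/CEK, so partial pairing is not excluded. The replicate block called 6 of the 9 genes in CBK and 2 in CBK/CEK, beside 1385 and 942 of all genes. Among the other named genes, calls of Ppp1r1a (0.078), Trpm4 (0.174) and Jph1 (0.0646) in CBK, and of Jph1 (0.0747) in CBK/CEK, were lost with the line alone, and of Trpm4 in CBK (0.0511) and Mylk4 in CBK/CEK (0.0631) with no filter. The cause was not tested. Over all genes the calls ran from 871 with the line alone to 1635 with DESeq2 in CBK, from 17 with no filter to 142 with DESeq2 in CEK, and from 2 to 19 in Cre CON. With the CEK line alone, Mrln did not pass the filter on low counts and was not tested. Its low counts limit what can be said of it outside CBK and CBK/CEK.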
